A study of Mus musculus with 30 samples.

Results

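The mouse collagen gene family was examined in heart and white adipose tissue, 2 tissues in which collagens form the scaffold around cardiomyocytes and adipocytes. Members were the protein-coding genes whose symbol has the form Col, a type number, a and a chain number, and 44 genes of the 36558 in the deposited table met this rule. They fell into 11 fibrillar chains, 6 basement membrane chains (type IV), 6 beaded filament chains (type VI), 9 fibril-associated chains (FACIT), 2 multiplexins, 3 network-forming chains, 4 transmembrane chains and 3 others. The mice were C57BL/6J males injected with an adeno-associated viral vector, AAV8, that carried F11, the gene of coagulation factor XI, or green fluorescent protein (GFP). AAV8 mainly reaches the liver, where factor XI is normally made. All groups ate a high-fat diet (HFD) for 7 weeks and received l-NAME, which blocks the enzymes that make nitric oxide. Tissues were taken at 15 weeks of age, and no group ate a normal diet. The groups were 6 GFP and 7 F11 heart libraries and 8 GFP and 8 F11 adipose libraries. The labels give neither the promoter of the vector nor the depot of the fat, and do not say that each library is a separate mouse, so p-values measure only the spread between these libraries.

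Collagens are made of 3 chains wound into a triple helix. Fibrillar chains assemble into the fibers that give tissue its tensile strength, type IV chains form the sheet-like network of basement membranes around muscle fibers, adipocytes and vessels, and type VI forms beaded filaments between the 2. Fibroblasts and related stromal cells make most fibrillar collagen, and its build-up is fibrosis, a known feature of the stressed heart and of fat in obesity. Each chain gene is transcribed on its own, although some genes of partner chains lie side by side in the genome.

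Libraries held 25.75 to 33.02 (in units of 1e6) estimated counts in heart and 15.95 to 26.33 in adipose tissue. Collagens took 0.185 ± 0.0258% of the counts in GFP hearts (SD, n = 6) and 0.179 ± 0.0172% in F11 hearts (SD, n = 7). In adipose tissue they took 1.54 ± 0.475% with GFP and 1.43 ± 0.281% with F11 (SD, n = 8 each). Levels below are counts per 1000000 (CPM) scaled by TMM over all 29 libraries, and levels of different genes are compared only per length, as CPM per kilobase of the longest protein-coding transcript (CPM per kb). Cardiomyocyte markers summed to 54180 to 71590 CPM in hearts and adipocyte markers to 10190 to 17370 CPM in adipose libraries, as the tissue labels say. F11 itself was at 0.388 to 11.96 CPM in F11 adipose libraries and 0 to 3.50 CPM in GFP ones, and at most 0.501 CPM in any heart library. Several libraries held transcripts of other tissues. Those with a marker sum of another tissue over 100 CPM and over 10 times its median are called mixed-tissue libraries. Among adipose libraries, 5 liver markers summed to 3509 CPM in L136, 3257 CPM in L145 and 1831 CPM in L146 against a median of 122.1 CPM, 5 epididymis markers to 3999 CPM in L142 against 0.897 CPM, and 6 cardiomyocyte markers to 5577 CPM in L140. Among hearts, liver markers reached 222.8 CPM in the GFP library L2, and globin markers reached 6050 CPM in the GFP library L8 and 5301 CPM in the F11 library L40 against group medians of 1135 and 1052 CPM. Heart and adipose libraries also carry different name prefixes and number ranges, so tissue and library preparation cannot be told apart. Within each tissue the GFP and F11 libraries have separate number ranges as well, so vector and any effect of library order cannot be told apart. In bulk tissue, fewer cells of a type and less RNA per cell cannot be told apart either.

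The 2 tissues differed in how much collagen mRNA they held and in which classes made it up. In GFP hearts type IV chains were the largest class, with 44.3 ± 3.46% (SD, n = 6) of all collagen CPM per kb, and fibrillar chains came next with 30.15 ± 1.95%. In GFP adipose tissue the order of the means was turned, with 38.7 ± 5.78% fibrillar and 28.05 ± 2.88% type IV (SD, n = 8). Type IV was above fibrillar in the GFP adipose library L136 (32.4 and 30.95%) and in the F11 adipose libraries L145 (34.1 and 32.35%) and L146 (33.75 and 31.35%). The type IV share ran from 40.7 to 50.9% over the 6 hearts and from 22.9 to 32.4% over the 8 adipose libraries, so the tissues did not overlap. With the length of all exons joined in place of the longest transcript, the shares were 24.4% fibrillar and 50.9% type IV in heart and 33.5% and 33.1% in adipose tissue. The 2 classes were then nearly equal in adipose tissue, so the turned order there rests on the length used. Type VI chains made up 14.3 ± 0.579% in heart and 20.85 ± 2.08% in adipose tissue, and the multiplexins 7.64 ± 0.855% and 10.5 ± 3.32%. The other classes together made up less than these in both tissues. F11 libraries had shares close to those of GFP libraries, with 46.6 ± 2.73% type IV and 27.9 ± 1.21% fibrillar in heart (SD, n = 7) and 30.1 ± 4.02% and 37.25 ± 6.16% in adipose tissue (SD, n = 8).

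**Figure D1:**
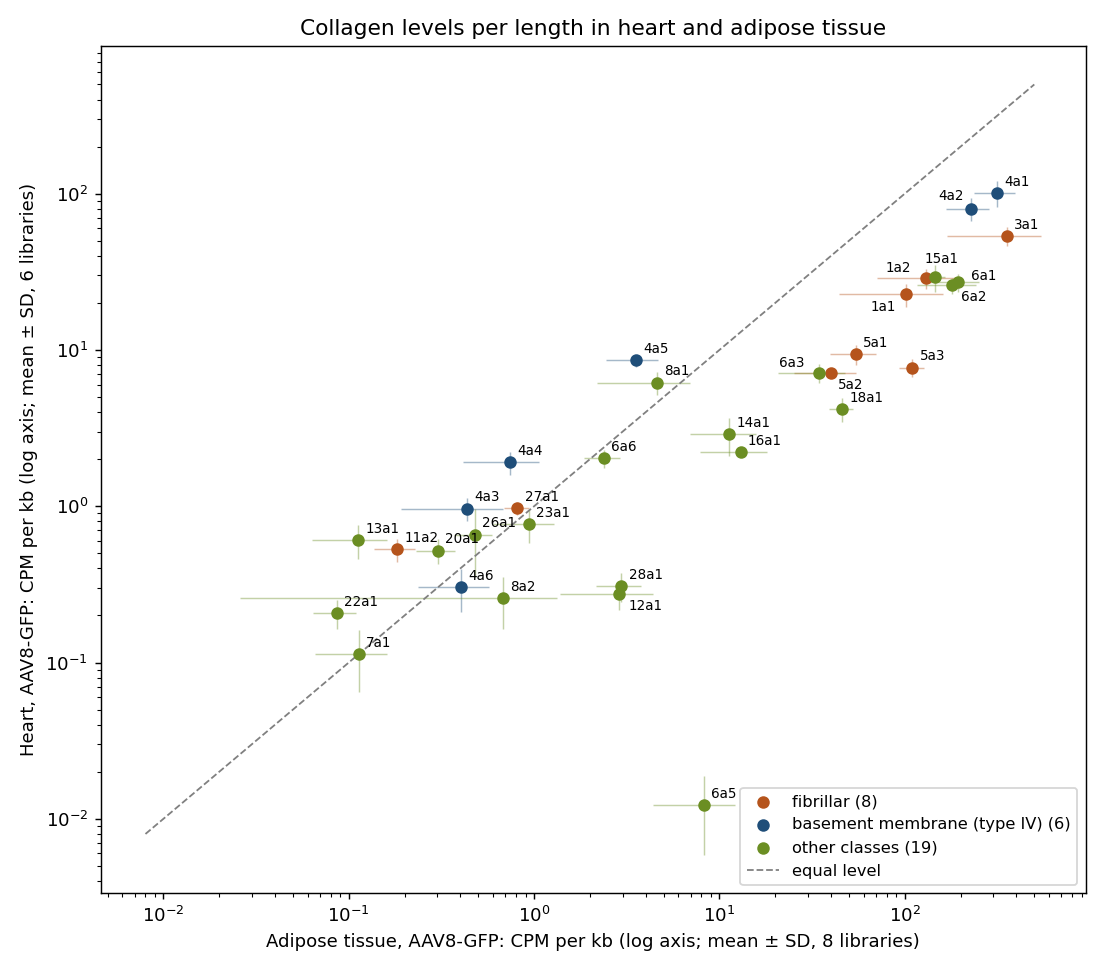
Level per length of each collagen in GFP adipose tissue (x axis, CPM per kb) and GFP heart (y axis, CPM per kb), both on log axes, with points at the mean and bars at ± SD over 8 and 6 libraries; labels give type and chain. Col4a1, Col4a2, Col3a1, Col15a1 and the type I and main type VI chains lie below the dashed line of equal level, whereas Col4a3, Col4a4, Col4a5, Col8a1, Col13a1, Col11a2 and Col22a1 are among those above it.

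Between GFP heart and GFP adipose tissue, 28 of the 34 tested collagens differed, 9 higher and 19 lower in heart. Over all genes 81.4% differed, with 37.7% higher and 43.6% lower in heart, so the share of collagens that differed was near the background. The median log2 difference of the collagens was -1.55, against -0.09 over all genes. The libraries of the 2 tissues did not overlap for 5 of the 34 collagens higher and 18 lower in heart, against 29.4% and 31.3% of all genes. Among F11 libraries, 30 of 36 tested collagens differed, 9 higher and 21 lower in heart, against 81.7% of all genes. The other 10 members were filtered out of the GFP comparison for low counts. A mean under 1 CPM in every group was found for 9 members, namely Col2a1, Col11a1 and Col24a1 of the fibrillar class, Col9a1, Col9a2, Col9a3, Col19a1, Col10a1 and Col25a1.

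Of the fibrillar chains, those of types I, III and V were all lower in heart. Col3a1, the single chain of type III collagen, had the highest level per length of all collagens in adipose tissue, 356 ± 186 CPM per kb (SD, n = 8). Its CPM ran from 663 over a median of 2047 to 3467 in GFP adipose libraries and from 232.6 over 307.4 to 337.5 in GFP hearts. The lowest adipose library was thus above every heart, and the log2 difference was -2.71 (SE 0.354, adjusted p 5.3e-06). Col1a1 and Col1a2, which build type I collagen, both had a log2 difference of -2.15, with adjusted p 0.000101 and 8.03e-06. Col1a1 was 102.6 to 156.6 CPM in GFP hearts and 166 to 1091 CPM in GFP adipose libraries, so the least of the latter, L140, came close to the hearts. The ratio of Col3a1 to Col1a1 per length was 2.38 ± 0.127 in GFP hearts (range 2.29 to 2.62) and 3.60 ± 0.340 in GFP adipose tissue (range 3.20 to 4.26). Type V chains regulate the diameter of type I fibrils. Col5a1 and Col5a2, its common chains, had log2 differences of -2.52 and -2.47 (adjusted p 3.23e-08 and 3.17e-07). Col5a3, the third type V chain, was lower in heart by more than the others, with a log2 difference of -3.82 (SE 0.131, adjusted p 2.95e-12). It ran from 491 over 706 to 813 CPM in GFP adipose libraries and from 37.3 over 46.85 to 54.7 CPM in GFP hearts. Per length it was 2.13 ± 0.507 times Col5a1 in GFP adipose tissue and 0.826 ± 0.115 times in GFP hearts. Col11a2, a chain of cartilage type XI collagen, and Col27a1 were the fibrillar chains higher in heart, by 1.55 and 0.28 on the log2 scale. The call of Col27a1 was lost among F11 libraries (log2 0.23, adjusted p 0.0713), without the mixed-tissue libraries and without the GFP heart library L6. Both were low, at 3.20 ± 0.526 and 7.42 ± 0.698 CPM in GFP hearts.

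The 6 type IV chains split by tissue. Col4a1 and Col4a2, the chains of the common basement membrane network, were the highest collagens per length in GFP heart, at 101 ± 19.5 and 80.3 ± 13.3 CPM per kb (SD, n = 6), and were higher still in adipose tissue, at 314 ± 78.7 and 226 ± 59.0 CPM per kb (SD, n = 8). Their log2 differences were -1.62 (SE 0.193, adjusted p 1.97e-06) and -1.48 (SE 0.19, adjusted p 4.4e-06). Col4a3, Col4a4 and Col4a5 form together the specialised network best known from the kidney filter. All 3 were higher in heart, by 1.17, 1.39 and 1.29 on the log2 scale, with adjusted p 0.00231, 0.000115 and 1.12e-05. Col4a5 ran from 46.95 over 56.3 to 61.4 CPM in GFP hearts and from 14.2 over 24.9 to 33.5 CPM in GFP adipose tissue, without overlap. Col4a4 was 15.5 to 23.6 CPM in GFP hearts and 4.07 to 12.6 CPM in GFP adipose tissue. Together Col4a3, Col4a4 and Col4a5 made up 6.09 ± 1.24% of type IV CPM per kb in GFP hearts and 0.950 ± 0.509% in GFP adipose tissue. Col4a6, which pairs with Col4a5 in smooth muscle basement membranes, was at 0.995 to 2.65 CPM in GFP hearts and 0.726 to 4.17 CPM in GFP adipose tissue, a log2 difference of -0.39 that did not pass (SE 0.326, adjusted p 0.276). Its level per length was 0.0351 ± 0.00964 times that of Col4a5 in GFP hearts and 0.118 ± 0.0520 times in GFP adipose tissue.

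The type IV genes lie in pairs that start back to back, and the stretches between the starts are shown since the levels of these partner chains were compared. In the GENCODE annotation of GRCm38, Col4a4 (chr1:82448423-82586849, minus strand) and Col4a3 (chr1:82586921-82722059, plus strand) are separated by 71 bases at chr1:82586850-82586920. Col4a6 (chrX:141165403-141474076, minus strand) and Col4a5 (chrX:141475385-141689234, plus strand) are separated by 1308 bases at chrX:141474077-141475384. The sequences are from RefSeq promoters of GRCm38.p6, 5′ to 3′ on the strand of the named gene, with exons left out and capitals on motif matches. They are the whole 71 bases before Col4a4, 216 bases before Col4a5 at chrX:141475169-141475384 and 250 bases before Col4a6 at chrX:141474077-141474326.
Col4a4: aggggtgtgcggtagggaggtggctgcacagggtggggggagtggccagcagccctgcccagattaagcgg
Col4a5: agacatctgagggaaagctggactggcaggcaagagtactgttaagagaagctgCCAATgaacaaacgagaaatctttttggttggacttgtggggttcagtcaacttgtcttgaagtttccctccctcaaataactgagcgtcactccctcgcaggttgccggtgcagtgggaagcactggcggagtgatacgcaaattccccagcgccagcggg
Col4a6: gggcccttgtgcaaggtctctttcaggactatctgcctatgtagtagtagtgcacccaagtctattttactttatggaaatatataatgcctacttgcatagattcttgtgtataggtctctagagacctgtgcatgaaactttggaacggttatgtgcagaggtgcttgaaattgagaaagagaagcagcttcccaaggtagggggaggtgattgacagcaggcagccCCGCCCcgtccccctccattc
The 250 bases before each start were searched on both strands for 3 motifs, counting each match whether or not it overlapped another. The TATA box was spelled TATAAA and was held by 12.4% of 32851 RefSeq promoters. The CCAAT box, under that spelling, was held by 33.8%. The GC box was spelled GGGCGG and was held by 32.7%. Of the 44 collagens, 35 matched the table with 38 promoters, of which 5, 13 and 22 held the respective motif, counted like the shares over all 250 bases with any annotated exon included. The stretch between Col4a4 and Col4a3 held none of these letters. Positions are counted from the RefSeq start, with -1 the base before it. Col4a5 held CCAAT with its first base at -196, and Col4a6 held a GC box on the opposite strand, printed as its reverse complement, at -21.

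Type VI collagen, which links cells and basement membranes to the fibrillar matrix, was lower in heart for each of its main chains. Col6a1, Col6a2 and Col6a3 had log2 differences of -2.82, -2.77 and -2.25, with adjusted p 3.31e-08, 2.18e-07 and 2.03e-06. Col6a1 was 91.35 to 129 CPM in GFP hearts and 314 to 1085 CPM in GFP adipose libraries. The ratio of Col6a1 to Col6a2 per length was 1.05 ± 0.0292 and 1.11 ± 0.102 in the 2 tissues. Col6a4, Col6a5 and Col6a6 are neighbors on chromosome 9 that can take the place of Col6a3, and their levels had little in common. Col6a6 was at 17.75 ± 2.31 CPM in GFP heart and 20.85 ± 4.56 CPM in GFP adipose tissue, a difference that did not pass (log2 -0.22, adjusted p 0.171). Col6a5 was nearly limited to adipose tissue, from 28.4 over 69.6 to 143.4 CPM in GFP adipose libraries and from 0.0456 over 0.123 to 0.199 CPM in GFP hearts (log2 -9.32, SE 0.513, adjusted p 4.08e-10). The 6 hearts together held 14 counts of it. Col6a4 was under 1 CPM in all GFP libraries. The Col6a5 promoter is shown as that of the collagen with the largest tissue difference, from chr9:105960644-105960893 on the minus strand, with its GC box at -57 in capitals.
Col6a5: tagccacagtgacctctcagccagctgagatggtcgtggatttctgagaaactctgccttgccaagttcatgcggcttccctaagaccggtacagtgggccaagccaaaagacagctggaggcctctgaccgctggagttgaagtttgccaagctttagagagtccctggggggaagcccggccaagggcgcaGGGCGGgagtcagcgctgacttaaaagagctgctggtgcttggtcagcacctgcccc
It held neither of the other motifs.

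The multiplexins Col15a1 and Col18a1, basement membrane proteoglycans whose ends are cut off as restin and endostatin, were both lower in heart, by log2 differences of -2.30 and -3.44 (adjusted p 4.91e-10 and 9.65e-12). Col15a1 was 120.4 to 188.4 CPM in GFP hearts and 605 to 898 CPM in GFP adipose tissue. Of the fibril-associated chains, Col12a1, Col14a1 and Col16a1 were lower in heart by -3.36, -1.96 and -2.53 on the log2 scale. Col22a1, known from tissue junctions such as that of muscle and tendon, was higher in heart, at 1.82 ± 0.383 against 0.761 ± 0.199 CPM (log2 1.27, adjusted p 4.06e-05). Col20a1 was higher by 0.80. Col13a1, a transmembrane collagen of the neuromuscular junction, had the largest positive difference of all, 2.44 (SE 0.286, adjusted p 1.64e-06), from 1.24 to 2.45 CPM in GFP hearts and 0.136 to 0.544 CPM in GFP adipose tissue. Col28a1, a collagen of peripheral nerve, was lower in heart by -3.23. Col8a1 and Col8a2 are chains of the network collagen of vessel walls. Col8a1 did not pass (log2 0.45, adjusted p 0.16), and Col8a2 was lower in heart by -1.38 (adjusted p 0.034), a call lost under 12 of 24 alternatives.

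**Figure D2:**
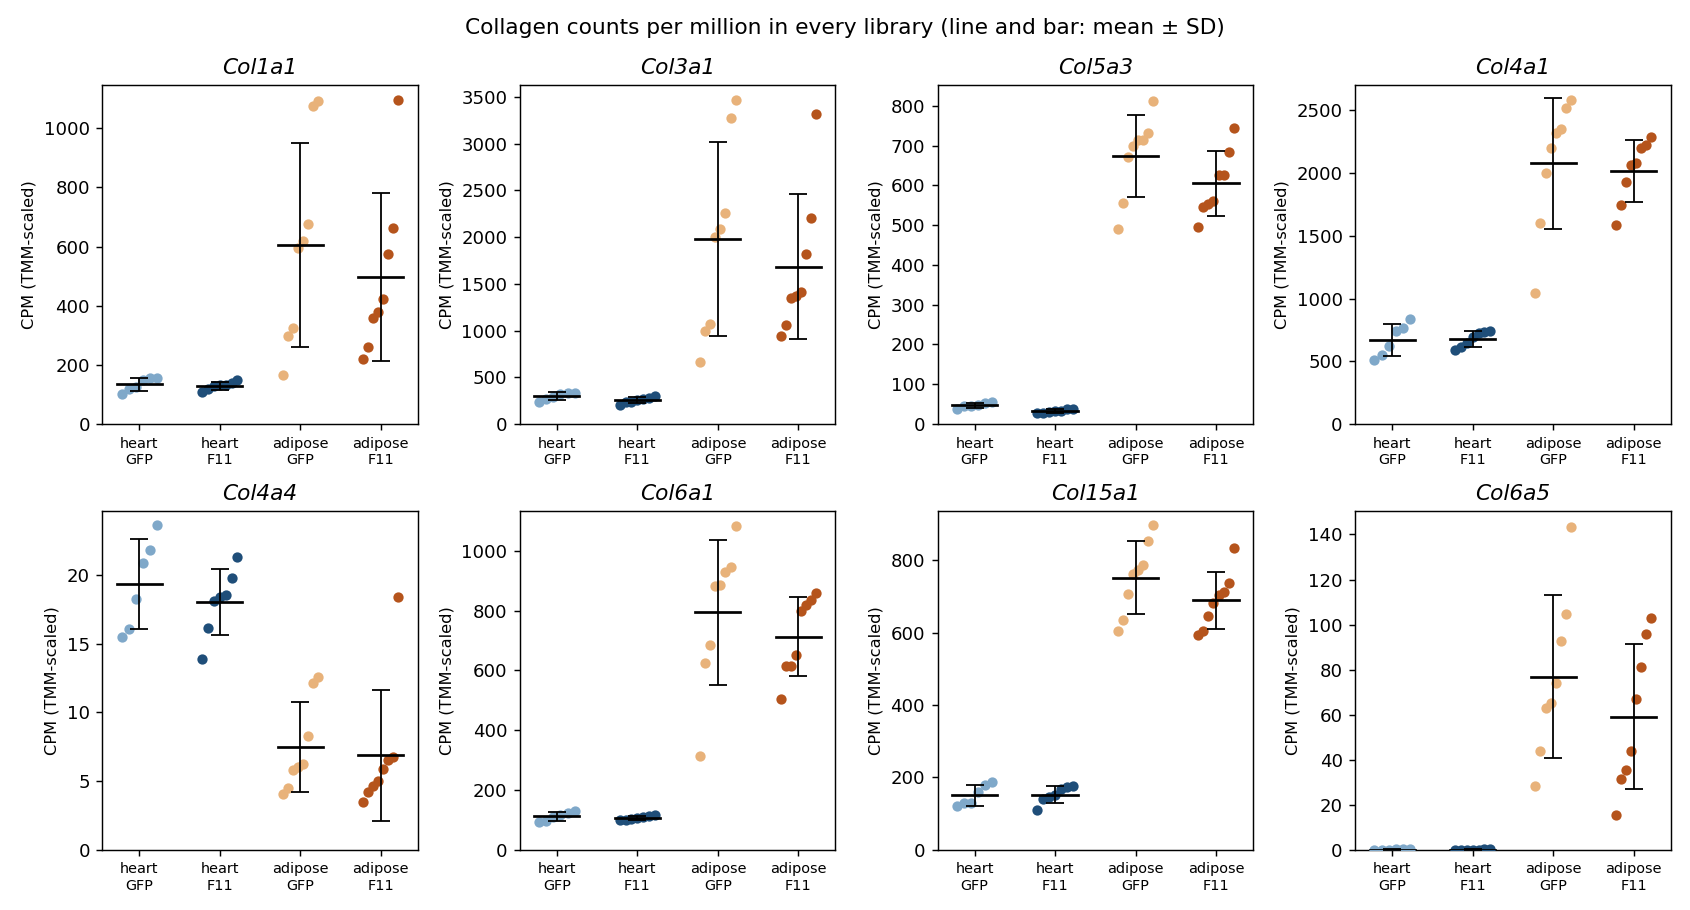
CPM (TMM-scaled, y axis from 0) of 8 collagens in every library of the 4 groups; points are libraries, lines and bars the mean ± SD. Hearts lie below all adipose libraries in 7 panels and Col4a4 lies mostly above, and points of GFP and F11 overlap widely except for Col5a3 in heart.

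F11 and GFP hearts were compared to ask which collagens differ when factor XI is supplied. A single collagen of 33 tested differed, Col5a3, which was lower in F11 hearts. Over all genes 0.872% differed and 0.354% were lower. Col5a3 was 48.05, 54.7, 45.65, 37.3, 52.6 and 44.9 CPM in the GFP libraries L1, L2, L5, L6, L8 and L9. It was 28.1, 33.7, 38.4, 28.1, 33.35, 37.6 and 29.7 CPM in the F11 libraries L31, L33, L35, L36, L38, L39 and L40. All 7 F11 hearts lay below the median of the GFP hearts, and 2 of them, L35 and L39, were above the lowest GFP heart, L6. The log2 fold change was -0.53 (SE 0.0961, adjusted p 0.0141 by edgeR's quasi-likelihood test). Without the high-globin libraries L8 and L40 the log2 fold change was -0.47 with an adjusted p of 0.072, so the call was lost. It was kept under the other 21 alternatives, with adjusted p from 1.99e-05 to 0.0399. The ratio of Col5a3 to Col5a1 per length was 0.826 ± 0.115 in GFP hearts and 0.546 ± 0.0723 in F11 hearts. Since Col5a3 is far higher in fat, adipocyte markers in heart are given beside it. Adipoq, a defining adipocyte marker, was 0.0497 to 3.47 CPM in GFP hearts and 0.147 to 1.29 CPM in F11 hearts, against 962 to 2163 CPM in GFP adipose tissue. The 6 adipocyte markers, of which 5 and 3 had a mean over 1 CPM, summed to 809 to 1035 CPM in GFP hearts and 785.5 to 1149 CPM in F11 hearts. Most of this sum came from Fabp4 and Pnpla2, at 634.6 and 400.1 CPM in L8 and 672.2 and 473.8 CPM in L40. Plin1 was 0.547 to 6.85 CPM in GFP and 0.446 to 1.49 CPM in F11 hearts. Cidec was 0.0995 to 2.76 and 0.308 to 1.33 CPM, and Lep at most 0.483 and 0.322 CPM. The cardiomyocyte markers summed to 54180 to 58000 CPM in GFP hearts and 62580 to 71590 CPM in F11 hearts, without overlap. Most of this sum was Myh6, at 32000 to 36450 CPM in GFP and 38330 to 44440 CPM in F11 hearts. Each of the other cardiomyocyte markers overlapped between the vectors. The fibroblast markers summed to 1982 to 2831 CPM in GFP and 1977 to 2514 CPM in F11 hearts. The part of these cell types in the difference was not tested.

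The Col5a3 promoter is shown as that of the collagen that differed between vectors in heart and most between tissues among the fibrillar chains. It lies at chr9:20815068-20815317 on the minus strand, upstream of the gene at chr9:20770050-20815067.
Col5a3: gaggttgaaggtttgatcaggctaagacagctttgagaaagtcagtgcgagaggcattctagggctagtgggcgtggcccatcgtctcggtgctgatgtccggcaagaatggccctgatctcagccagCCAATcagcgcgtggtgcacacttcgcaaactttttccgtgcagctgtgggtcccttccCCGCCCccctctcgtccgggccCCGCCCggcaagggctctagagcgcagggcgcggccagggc
It held CCAAT at -122 and GC boxes on the opposite strand, printed as their reverse complement, at -63 and -41, counted from the start to the first base printed.

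The other collagens did not pass in heart. An unadjusted p under 0.05 by edgeR was found for 4 of the 33 members, against 1831 of all 14684 genes, a similar share. The 4 were Col5a3 and the next 3 in order, Col5a2, Col18a1 and Col3a1, all lower with F11. Col5a2 was 43.3 to 50.8 CPM in GFP and 34.8 to 46.95 CPM in F11 hearts (log2 -0.21, SE 0.07, adjusted p 0.193). Col18a1 was 18.2 to 28.2 and 17.6 to 22.4 CPM (log2 -0.27, SE 0.0985, adjusted p 0.257), and Col3a1 was 232.6 to 337.5 and 208.5 to 302.8 CPM (log2 -0.23, SE 0.0999, adjusted p 0.363). Of the 8 fibrillar chains tested, 7 had a negative fold change, with a class median of -0.16, where 7711 of all 14684 genes were negative. The 6 type IV chains had a median of 0.01 and a range from -0.18 to 0.08, and the 19 other collagens a median of -0.05. The median over all 33 collagens was -0.06, against -0.01 over all genes, and moved to -0.01 without the GFP library L2 and to -0.11 without the GFP library L5. Col1a1, with 102.6 to 156.6 CPM in GFP and 108.5 to 147.4 CPM in F11 hearts, had a log2 fold change of -0.06 (SE 0.102), and Col4a1, with 512 to 836 and 592 to 744 CPM, of 0.02 (SE 0.11).

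**Figure D3:**
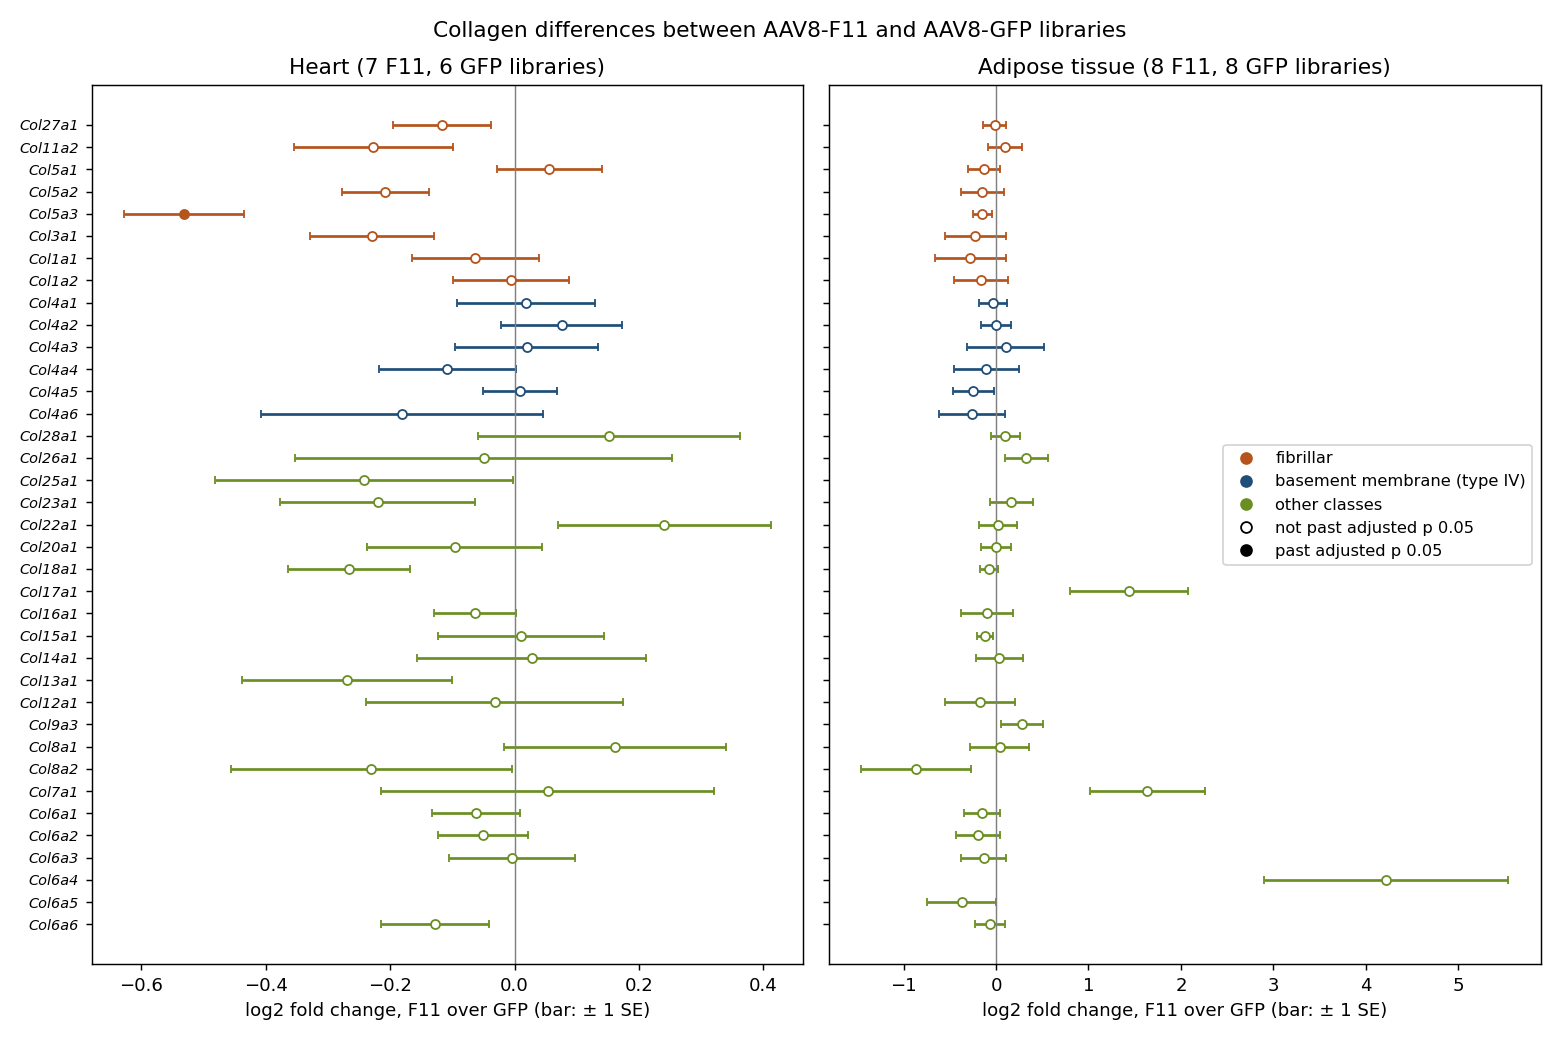
Log2 fold change of F11 over GFP (x axis, bars ± 1 SE) for each tested collagen in heart (left) and adipose tissue (right, wider axis); filled points passed an adjusted p of 0.05. Col5a3 in heart is the filled point, at -0.53, and the long bars in adipose tissue belong to Col6a4, Col7a1 and Col17a1.

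In adipose tissue no collagen differed between F11 and GFP, 0 of 35 tested, where 0% of all 15229 genes differed. At an unadjusted p under 0.05, edgeR found 638 of all genes. DESeq2 also called none of the collagens and 6 of all genes, and limma voom called none of either. Among collagens an unadjusted p under 0.05 was found for 3, Col6a4, Col7a1 and Col17a1, the last an epithelial anchoring chain and Col7a1 the anchoring fibril of skin. All 3 were high in the F11 library L142, with 64.4, 15.9 and 5.86 CPM, where the epididymis markers stood apart. In the other F11 libraries Col6a4 was at most 1.23 CPM, Col7a1 at most 1.64 CPM and Col17a1 at most 0.582 CPM. Their log2 fold changes of 4.22 (SE 1.32), 1.64 (SE 0.619) and 1.44 (SE 0.64) fell under alternatives to as low as 0.14, 0.36 and 0.12. Col5a3, with the next lowest p, was 491 to 813 CPM in GFP and 496.6 to 745 CPM in F11 libraries (log2 -0.15, SE 0.102). The abundant chains overlapped between vectors. Col1a1 had a median of 606 CPM in GFP and 401 CPM in F11 libraries, from 166 to 1091 and from 218.5 to 1097 CPM, with a log2 fold change of -0.28 and an SE of 0.385. Its SE was 0.102 in heart, and the median SE of the fibrillar chains was 0.209 in adipose tissue and 0.0948 in heart. Fibrillar chains had a median log2 fold change of -0.15, type IV chains of -0.07 and all 35 collagens of -0.07, against 0.00 over all genes. No collagen of 37 passed the test of a difference in the F11 effect between tissues, where 0.0242% of all genes passed. Col5a3 had an interaction of -0.37 (SE 0.149, adjusted p 0.523), heart minus adipose. An unadjusted p under 0.05 by edgeR was found for 2 of the 37 collagens, Col5a3 and Col7a1, against 1228 of all 16526 genes.

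Collagens varied more from library to library than most genes did, in adipose tissue and in heart. The SD of log2(CPM + 0.5) about the vector group mean had a median of 0.53 over the 32 collagens with a mean of at least 1 CPM, against 0.22 over 14346 genes at that level, and 28 of the 32 were above the median of all genes. In heart the medians were 0.20 over 32 collagens and 0.12 over all genes, and 31 of the 32 were above the median of all genes. For 28 of 30 collagens at that level in both tissues the SD was larger in adipose tissue, the exceptions being Col15a1 and Col26a1. The median over all genes was also larger in adipose tissue, at 0.22 against 0.12, so this was not particular to collagens. Without the 5 mixed-tissue adipose libraries the medians were 0.35 for collagens and 0.18 for all genes. Libraries under the cut were kept, among them L137 with liver markers at 1017 CPM. The widest spreads were those of Col6a4 at 1.58, Col8a2 at 0.94, Col12a1 at 0.90 and Col7a1 at 0.86, followed by Col1a1 at 0.85. Col6a4 and Col7a1 were set by L142. Col12a1, a chain that coats fibrils, ran from 5.24 CPM in L140 to 57.15 CPM in L135. Col1a1 ran from 166 CPM in L140 to 1097 CPM in L148, a ratio of 6.61. L140 had the lowest value of 16 of the 32 collagens, and L148, L133 or L135 had the highest of 15. The same counts over all genes were not made. The narrowest spreads were those of Col15a1 at 0.18, Col18a1 at 0.20, Col5a3 at 0.21 and Col20a1 at 0.22. Col15a1 ran only from 593 to 898 CPM and Col5a3 from 491 to 813 CPM over the 16 libraries. Spread was thus not uniform within the fibrillar class, which held both Col1a1 and Col5a3, whereas both multiplexins were narrow. The median SD was 0.46 for fibrillar chains, 0.54 for type IV chains and 0.55 for the other collagens, a difference that was not tested.

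**Figure D4:**
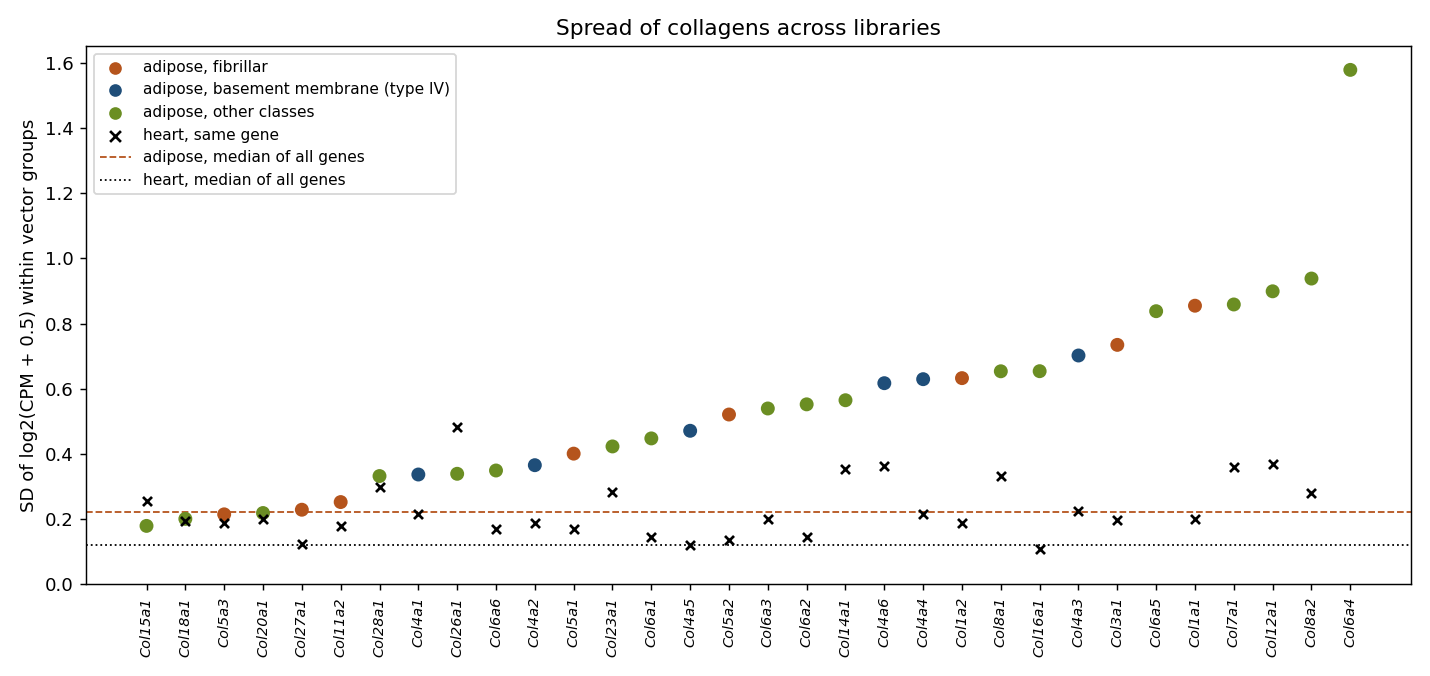
SD of log2(CPM + 0.5) within vector groups (y axis) for the 32 collagens with a mean of at least 1 CPM in adipose tissue, in rising order; colored points are adipose tissue, crosses the same gene in heart, and lines the medians over all genes. Points rise from 0.18 for Col15a1 to 1.58 for Col6a4, whereas most crosses stay below 0.4.

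Most tested pairs of collagen chains rose and fell together across libraries, both partner chains of 1 type and pairs of Col1a1 with chains of other types. Correlations are of log2(CPM + 0.5) with the vector group mean removed, with permutation p-values adjusted over 22 pairs in the 2 tissues, and 1e-05 is the smallest p that 100000 draws can give. By Pearson's r 19 of 22 pairs passed, and 17 by Spearman's rho. The share of pairs of other genes that would pass was not computed. In the 16 adipose libraries Col1a1 and Col1a2 had r 0.992 and rho 0.982 (permutation p 1e-05 and 1e-05, adjusted 2.75e-05 and 3.14e-05), and Col1a1 and Col3a1 had r 0.991 and rho 0.974 with the same p-values. Without L140 and L148, the libraries farthest from the median of Col1a1, r was 0.989 and 0.985, and within GFP and F11 it was 0.994 and 0.989 for the first pair and 0.994 and 0.991 for the second. Col4a1 and Col4a2 had r 0.989 and rho 0.912, and Col6a1 and Col6a2 r 0.991 and rho 0.909, both with the same p-values. Col4a3 and Col4a4, 71 bases apart, had r 0.914 and rho 0.747 (permutation p 4e-05 and 0.00174, adjusted 8.8e-05 and 0.00348), with r 0.780 without L140 and L142. In heart this pair had r 0.765 and rho 0.742 over 13 libraries (permutation p 0.00703 and 0.01, adjusted 0.0091 and 0.013), and 0.584 without L5 and L40. Col4a5 and Col4a6 had r 0.654 and rho 0.477 in adipose tissue (permutation p 0.00745 and 0.073, adjusted 0.00911 and 0.0846), and r was 0.296 without L139 and L146, so the relation rests on those libraries. Col8a1 and Col8a2 showed no relation that passed in either tissue, with r 0.0437 and rho 0.0529 in adipose tissue (permutation p 0.881 and 0.864) and r 0.421 and rho 0.346 in heart (permutation p 0.14 and 0.276). Col1a1 and Col4a1 had r 0.744 and rho 0.732 in adipose tissue (permutation p 0.00123 and 0.00221, adjusted 0.00198 and 0.00374), 0.875 within GFP and 0.464 within F11. In heart they had r 0.553 and rho 0.484 (permutation p 0.117 and 0.163, adjusted 0.128 and 0.18). All libraries of a tissue share the scale of CPM, so pairs are not free of shared depth effects.

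Col1a1 was then set against every other collagen with a mean of 1 CPM, 31 in each tissue, a comparison added after seeing the data and adjusted over all 62. The share of all genes that would pass this test was not computed in either tissue. In adipose tissue 14 collagens passed, all with a positive r, and 11, or 35.5%, had r over 0.8. Over all 14345 other genes at that level 15.5% had r over 0.8, so many genes followed Col1a1 across these libraries. These included Col5a2 with r 0.971 and rho 0.956, Col6a3 with 0.951 and 0.932, Col12a1 with 0.913 and 0.897 and Col16a1 with 0.898 and 0.897. Each had a permutation p of 1e-05 for r, adjusted 8.86e-05, and r from 0.888 to 0.955 without L140 and L148. Col15a1 had r 0.296 and rho 0.262, Col5a3 0.366 and 0.209 and Col18a1 0.0804 and -0.0206, none of which passed (adjusted permutation p for r 0.408, 0.304 and 0.839). In heart 5 collagens, or 16.1%, had r over 0.8, against 0.282% of all genes. Without L5 and L36 only 1 had r over 0.8, a count not made over all genes. In heart 9 passed, among them Col18a1 with r 0.844 and rho 0.918 and Col15a1 with r 0.712 and rho 0.781 (adjusted permutation p for r 0.0152 and 0.0458). Within GFP and F11 hearts r was 0.847 and 0.839 for Col18a1 and 0.924 and 0.391 for Col15a1. The difference of these 2 genes from adipose tissue was not tested. Promoters of Col3a1, which followed Col1a1 in adipose tissue, and of Col15a1, which did not pass, are shown side by side, from chr1:45311288-45311537 and chr4:47207762-47208011, both on the plus strand.
Col3a1: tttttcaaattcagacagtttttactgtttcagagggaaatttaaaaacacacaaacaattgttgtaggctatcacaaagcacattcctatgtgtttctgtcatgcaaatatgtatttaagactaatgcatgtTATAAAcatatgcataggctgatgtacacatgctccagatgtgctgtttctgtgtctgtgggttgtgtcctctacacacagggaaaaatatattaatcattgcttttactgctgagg
Col15a1: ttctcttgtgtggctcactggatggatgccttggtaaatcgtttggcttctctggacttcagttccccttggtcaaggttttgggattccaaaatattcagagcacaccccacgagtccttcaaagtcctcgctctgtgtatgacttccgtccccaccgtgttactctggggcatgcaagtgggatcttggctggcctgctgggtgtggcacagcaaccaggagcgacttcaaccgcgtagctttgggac
Col3a1 held TATAAA at -117 and neither of the other motifs, and Col15a1 held none of the 3.

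Markers of cell types moved with Col1a1 across the adipose libraries. The 5 markers of lipid-associated macrophages summed to 70.7 to 2353 CPM in GFP and 205.7 to 3113 CPM in F11 libraries, highest in L133 and L148. Their sum had r 0.926 and rho 0.938 with Col1a1 (permutation p 1e-05 each, adjusted 0.00012 over 12 relations added after seeing the data). Without L140 and L148 r was 0.871, without the mixed-tissue libraries 0.827, and within GFP and F11 0.904 and 0.962. All 5 markers had a positive r, from 0.735 for Spp1 to 0.935 for Atp6v0d2, and so had all 7 general macrophage markers, from 0.906 for Lyz2 to 0.954 for Adgre1. Over all genes 15.5% had r over 0.8 with Col1a1 in adipose tissue. The 10 fibroblast markers had a sum with r -0.785 and rho -0.765 (permutation p 0.00057 and 0.00131, adjusted 0.00342 and 0.00786), but single markers went both ways, 7 positive and 3 negative, from -0.824 for Gsn, the marker with the highest level in the list, to 0.93 for Cd248. The adipocyte sum had r -0.568 and rho -0.591 (permutation p 0.0162 and 0.0161, adjusted 0.0378 and 0.0461), and 5 of its 6 markers were negative, down to -0.845 for Adipoq, whereas Lep had r 0.751. The endothelial sum had r -0.593 and rho -0.574 (permutation p 0.0189 and 0.0275, adjusted 0.0378 and 0.055), and all 6 of its markers were negative. All 8 mesothelial markers were negative, from -0.519 to -0.336. Mural markers went both ways, 3 positive and 5 negative, from -0.88 for Abcc9 to 0.806 for Pdgfrb. For Col4a1 the macrophage sum had r 0.709 and rho 0.674 (permutation p 0.00633 and 0.0026, adjusted 0.019 and 0.0104), and r 0.459 without L140 and L144. For Col15a1 it had r 0.221 and rho 0.229 (permutation p 0.439 and 0.404, adjusted 0.585 and 0.523). The part of these cell types in the spread of collagens was not tested.

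**Figure D5:**
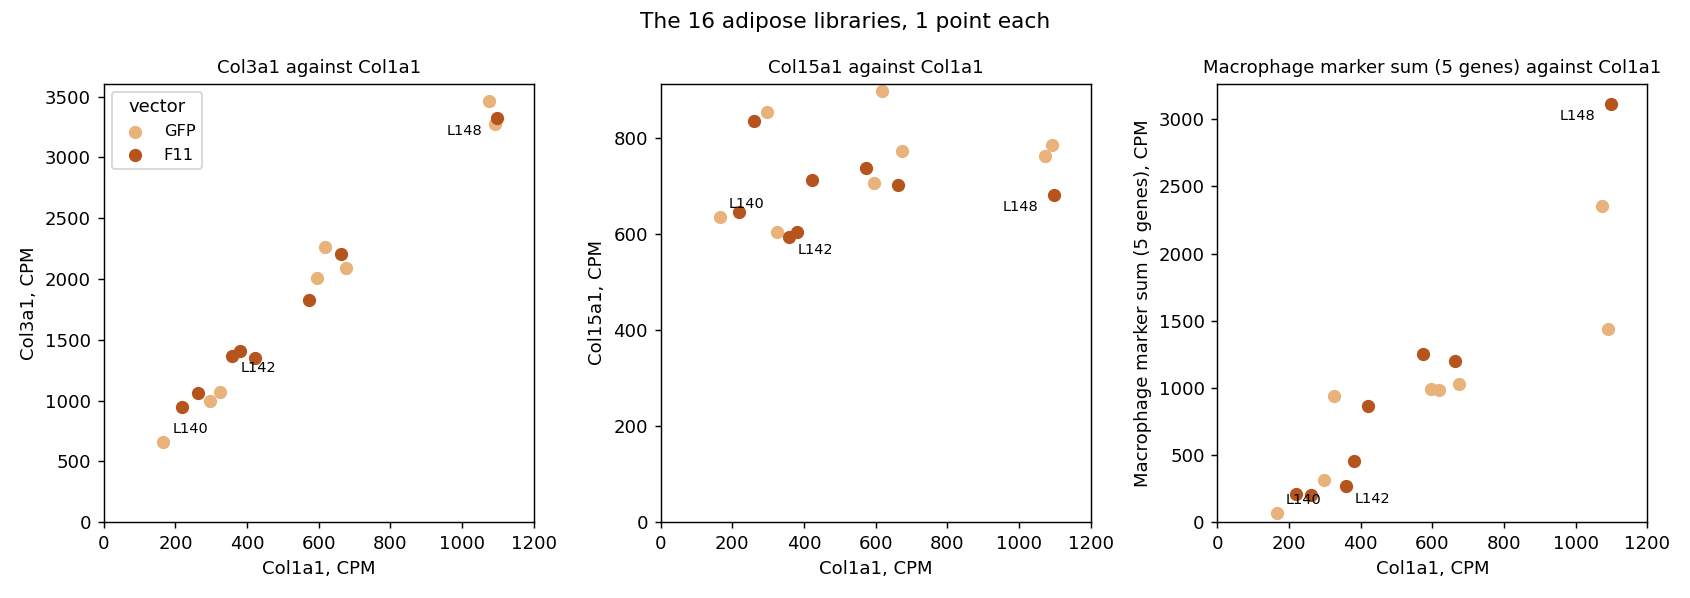
Col1a1 (x axis, CPM) against Col3a1, Col15a1 and the summed CPM of 5 markers of lipid-associated macrophages (y axes, CPM) in the 16 adipose libraries, 1 point each, colored by vector. Col3a1 and the markers rise with Col1a1 up to L148, whereas Col15a1 stays between 593 and 898 CPM.

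Genes that make, cut, link and bind collagen were followed in 6 lists with 73 genes. None of 71 tested in heart and none of 70 tested in adipose tissue passed for F11 against GFP, by edgeR. In heart the lowest p-values of the folding list were those of P4ha2, a proline hydroxylase of nascent chains (log2 0.18, SE 0.048, adjusted p 0.0938), and Creb3l1, a factor that drives collagen secretion genes (log2 -0.33, SE 0.114, adjusted p 0.204). In the crosslinking list they were those of Loxl1 (log2 -0.17, SE 0.0582, adjusted p 0.21) and Lox (log2 -0.12, SE 0.0886), lysyl oxidases that join fibrils. Among basement membrane partners they were Hspg2, or perlecan (log2 0.19, SE 0.0582, adjusted p 0.151), and Nid2, a nidogen that bridges laminin and type IV (log2 0.18, SE 0.0654, adjusted p 0.236). Between GFP tissues 57 of 70 passed, 17 higher and 40 lower in heart, a share of 81.4% that is the same as over all genes, with a median of -0.69 against -0.09. The following were chosen after their values were seen. Serpinh1, the collagen chaperone HSP47, was at 229.5 CPM in heart and 561 CPM in adipose tissue (log2 -1.27), Lox at 6.76 and 132.9 CPM (log2 -4.28), and Sparc, which binds fibrillar collagens and type IV, at 316 and 3406 CPM (log2 -3.41). Nid1 was at 192.1 and 939 CPM (log2 -2.27), whereas the laminin chains Lama5 and Lama2 were higher in heart (log2 2.14 and 1.86).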

How the data were processed

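Heart and white adipose RNA was measured in bulk and analysed from the estimated counts per gene that the authors deposited. Per the labels' protocols, total RNA was made into libraries with an mRNA kit and sequenced in pairs. The submitters' processing notes name kallisto 0.46 and GRCm38.p6, while the annotation release is not given in the sources used here. Of the values, 30.82% were not whole, and counts were rounded. One labelled GFP heart sample is not analysed here. Gene symbols came from GENCODE for 35935 of 36558 IDs. Groups were compared with edgeR 4.0.16 in R 4.3.3 (filterByExpr, TMM, robust quasi-likelihood test, Benjamini-Hochberg over all genes, threshold 0.05), checked on simulated data. DESeq2 1.42.0, limma 3.58.1 (voom with quality weights), other filters and scalings, and leaving out libraries were alternatives. Members, classes and lists were chosen with earlier results of these data known. Named collagens were those past the threshold for F11, the 4 with the lowest p, the 10 highest per length in each tissue, the 5 with the largest tissue fold in each direction, all type IV chains and the 4 widest and 4 narrowest over adipose libraries. Others were named after their values were seen.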

Additional observations from a re-analysis of the deposited data

Results flagged for a closer look

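For the named collagens, 108 groups (27 collagens in 4 groups) were searched for a library separated from the others by a gap that is wide relative to the range of its group, and 13 had one. Chance gives such a gap in about 1 in 20 groups of independent, normally distributed values. The 13 cannot be judged by that rate, since some collagens were named for a wide spread or a low p in these same libraries. Many of the gaps also came from 1 library. In adipose tissue with F11, 7 of the gaps were high values of the library L142, namely Col6a4 at 64.4 CPM, Col7a1 at 15.94 CPM, Col17a1 at 5.861 CPM, Col4a4 at 18.39 CPM, Col4a3 at 11.8 CPM, Col8a2 at 5.172 CPM and Col13a1 at 1.532 CPM. The next highest F11 libraries had 1.23, 1.64, 0.582, 6.75, 3.81, 2.25 and 0.540 CPM of these genes. Some GFP adipose libraries were high as well: Col8a2 was 8.98 CPM in L138, above L142, Col4a4 12.6 CPM in L138 and Col4a3 7.61 CPM in L140. The rest of these genes were at most 1.63 CPM in GFP adipose libraries. The epididymis markers of L142 summed to 3999 CPM, and their part in these values was not tested.

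Col1a2 was 1185 CPM in the F11 adipose library L148, above the next at 738.8 CPM, and Col28a1 was 17.36 CPM in the F11 adipose library L141. Col4a5 was low, at 46.95 CPM, in the GFP heart library L8, where the next lowest was 56.1 CPM. Col8a2 was 1.931 CPM in the GFP heart library L9. Col6a4 was 0.04828 CPM in the GFP heart library L9 and 0.046 CPM in the F11 heart library L38, with 0 in the other hearts of each group.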

How the results depend on the processing

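The call of Col5a3 in heart was lost without the high-globin libraries L8 and L40, which left 0 collagens (log2 -0.47, adjusted p 0.072), and was kept under 21 of 22 alternatives. Between tissues 26 to 32 collagens were called, 7 to 11 higher and 18 to 21 lower in heart. Counts for F11 in adipose tissue and for the interaction were 0 under all alternatives run. Col7a1 between tissues had no stable sign: its log2 difference was -1.50 among F11 libraries, and leaving out single libraries gave -0.11 to 0.19. The median spread of collagens in adipose tissue, 0.53, was 0.335 from edgeR's tagwise dispersion, another measure, 0.347 without the mixed-tissue libraries, 0.381 without L140 and L142, and 0.442 to 0.550 with single libraries left out. Shares by the length of all exons joined were 24.4% fibrillar and 50.9% type IV in GFP heart and a nearly equal 33.5% and 33.1% in GFP adipose tissue. Over all genes, 377 were called in heart by DESeq2, 196 by limma voom and 30 in the fit over all libraries, against 128. Without a filter the all-gene tissue median was -0.13. No paired analysis was possible because no groups share replicate numbers. The biological coefficient of variation was 0.355 in adipose tissue and 0.105 in heart, so that smaller differences could be called in heart, and members under 1 CPM rest on few counts.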
